A study of Homo sapiens with 6 samples.

Results

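PML nuclear bodies and the SP100 gene family were followed in HT1080 cells through 9 genes, PML, SP100, SP110, SP140, SP140L, DAXX, ATRX, SUMO2 and MORC3. They were chosen by name, from the known makeup of nuclear bodies but with earlier results of these data in view, and were found by Ensembl identifier among the 62710 genes of the table. HT1080 is an established human fibrosarcoma line. The 6 libraries were 3 of untreated HT1080 cells and 3 of HT1080 cells given human IFNβ at 20 ng/mL for 24 h, and both groups were grown in the same medium. The methods of the study speak of independent biological replicates for in vitro experiments in general, and the labels of these libraries do not say whether those of a group came from separate cultures. The p-values measure the spread between these libraries. The measurement was made on bulk RNA of 1 line, in which a change in the number of cells that use a gene and a change in RNA per cell cannot be told apart.

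PML nuclear bodies are dot-like protein assemblies of the nucleus, built on a shell of PML protein that is modified by the small protein SUMO and that recruits partners through SUMO-binding motifs. SP100 is a constant partner of PML, and SP110, SP140 and SP140L are its paralogues, chromatin-binding proteins with a SAND domain and, in their longer forms, a PHD finger and a bromodomain. DAXX and ATRX form a chaperone that places histone H3.3 in heterochromatin, and MORC3 is a nuclear body ATPase. PML and SP100 are known interferon-stimulated genes, and nuclear bodies are known to restrict the early steps of infection by several DNA viruses.

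Libraries were divided by 22848104 to 32915500 fragments, so that 1 fragment in a gene of 1 kb was worth 0.0304 to 0.0438 FPKM. FPKM is the number of fragments scaled by the exon length of the gene and by the depth of the library, which allows levels of genes of unequal length to be set side by side. The 9 genes had between 343 and 13208 fragments per library. Of 6 mesenchymal markers, 5 were above the expression filter and THY1 was near 0, with at most 0.0264 FPKM. Their summed level was 620 to 671 FPKM in untreated and 579 to 593 FPKM in IFNβ-treated libraries, with 4 markers lower and 1 higher by limma. Whether this shift has a part in the results was not tested. Leukocyte markers, which matter for SP140 because that gene is best known from lymphocytes, summed to 0.0916 to 0.338 FPKM in untreated and 0.136 to 0.456 FPKM in treated libraries over all 7 genes, with no single value above 0.255 FPKM. The 3 epithelial markers summed to at most 0.0684 FPKM.

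The 4 SP100 family genes lie beside each other on chromosome 2 (GRCh38, GENCODE release 29). SP110 (ENSG00000135899) spans chr2:230167293-230225729 on the minus strand. SP140 (ENSG00000079263) spans chr2:230203110-230313215, SP140L (ENSG00000185404) chr2:230327184-230403732 and SP100 (ENSG00000067066) chr2:230415942-230544090, all on the plus strand. RefSeq promoter windows of 300 bases (250 before and 50 from the annotated start, GRCh38.p14) matched 6 of the 9 genes, with 8 windows. Those of PML, DAXX and ATRX had no entry. The 4 family genes are shown here because all of them rose with IFNβ and because each has a window with nearly the same 16 letters. Each stretch has 150 bases on the gene's own strand, 120 before and 30 from the start, with those letters in capitals. SP110 is chr2:230219955-230220104 (minus strand, the downstream of its annotated starts), SP140 is chr2:230225616-230225765, SP140L is chr2:230327073-230327222 and SP100 is chr2:230416081-230416230 (plus strand).
SP110: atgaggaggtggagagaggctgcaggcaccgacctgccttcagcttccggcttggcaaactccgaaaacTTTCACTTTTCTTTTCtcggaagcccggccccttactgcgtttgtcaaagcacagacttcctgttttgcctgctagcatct
SP140: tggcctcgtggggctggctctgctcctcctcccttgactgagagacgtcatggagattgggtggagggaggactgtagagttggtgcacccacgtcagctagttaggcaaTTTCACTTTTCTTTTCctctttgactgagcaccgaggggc
SP140L: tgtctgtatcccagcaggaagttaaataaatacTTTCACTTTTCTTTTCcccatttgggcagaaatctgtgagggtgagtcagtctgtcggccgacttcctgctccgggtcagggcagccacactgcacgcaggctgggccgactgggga
SP100: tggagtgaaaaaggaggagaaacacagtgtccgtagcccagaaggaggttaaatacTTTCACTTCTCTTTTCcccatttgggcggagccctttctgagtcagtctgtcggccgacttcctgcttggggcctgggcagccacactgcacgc

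The letters TTTCACTTTTCTTTTC are the longest run that the windows of SP110, SP140 and SP140L share, found after the windows had been seen. With the first transcribed base as 1 and no position 0, they lie at -51 to -36 in SP110, at -10 to 6 in SP140 and at -87 to -72 in SP140L. SP100 holds them at -64 to -49 with the substitution T9C, counted from 1 at the 5′ end of the run. The window of its other annotated start, chr2:230416756, does not hold the run with up to 1 mismatch. Searched on both strands, the exact run was in 4 of 35116 windows of that length (0.0114%), which belong to 3 genes, SP110, SP140 and SP140L. The run was defined from windows of these genes, so this share is a description and not a test. The SP110 gene has a further annotated start 5652 bases upstream, which lies 100 bases from the SP140 start on the opposite strand. The run near the SP140 start and the run in that upstream SP110 window are the same DNA, chr2:230225726-230225741, read on SP110's strand as GAAAAGAAAAGTGAAA at -105 to -90.

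With up to 1 mismatch, 13 windows (0.037%) of 12 genes held the run. Of the 8 genes outside the family, 3 were above the expression filter. BTN3A3, a butyrophilin family gene, was at 2.22, 2.48 and 2.14 FPKM in untreated and at 7.51, 7.90 and 8.02 FPKM in treated libraries, a log2 fold change of 1.74 (SE 0.063). The log2 fold changes of RELA, a subunit of NF-κB, and of C2CD2 were 0.13 and -0.29. The SP140L and SP100 windows were alike beyond the run, with 253 identical bases in their alignment, 93% of the aligned positions. The letters GAAA followed by any 2 bases and again by GAAA, the repeat of the interferon-stimulated response element, were in 3.57% of all windows and in 0 of the 8 windows of the 9 genes. TTC and GAA with any 3 bases between them, the palindrome of the gamma-activated site, were in 7.66% of all windows and in 1 window, of SP110. In SP110 this match begins on the last 3 letters of the 16-base run, as the printed stretch shows. Both of these patterns were searched without mismatches, whereas the 16-base run was also searched with up to 1. The 0 for the response element repeat therefore counts exact matches only. Read on the complementary strand, the run of SP110, SP140 and SP140L itself holds stretches that differ from that repeat by 1 letter. A match describes letters in these windows and does not show binding.

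The main comparison asked which of these transcripts changed after 24 h of IFNβ. PML, SP100 and SP110 rose strongly, SP140 and SP140L rose close to 2-fold, MORC3 rose slightly, DAXX fell slightly, and ATRX and SUMO2 did not pass the test. All 9 genes were above the filter of a mean of 0.1 FPKM. Of them, 3 were differentially expressed genes (DEGs, a limma adjusted p-value under 0.05 and a log2 fold change past 1 or -1 on log2(FPKM + 0.1)), all higher. Among the 20716 genes tested, 4.22% were DEGs, 3.49% higher and 0.739% lower. Since the genes were chosen with results known, these shares are a background and not a test. Without the fold threshold, 6 of the 9 genes were higher and 1 was lower, against 15.2% higher and 17.5% lower among all genes tested (32.7% in either direction). The treated libraries lay wholly above the untreated ones for 6 of the 9 genes and wholly below for 1, where 22.3% and 24.3% of all genes tested did so (46.6% in either direction). The median log2 fold change of the 9 genes was 0.93 and that of all genes tested was 0.000.

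**Figure D1:**
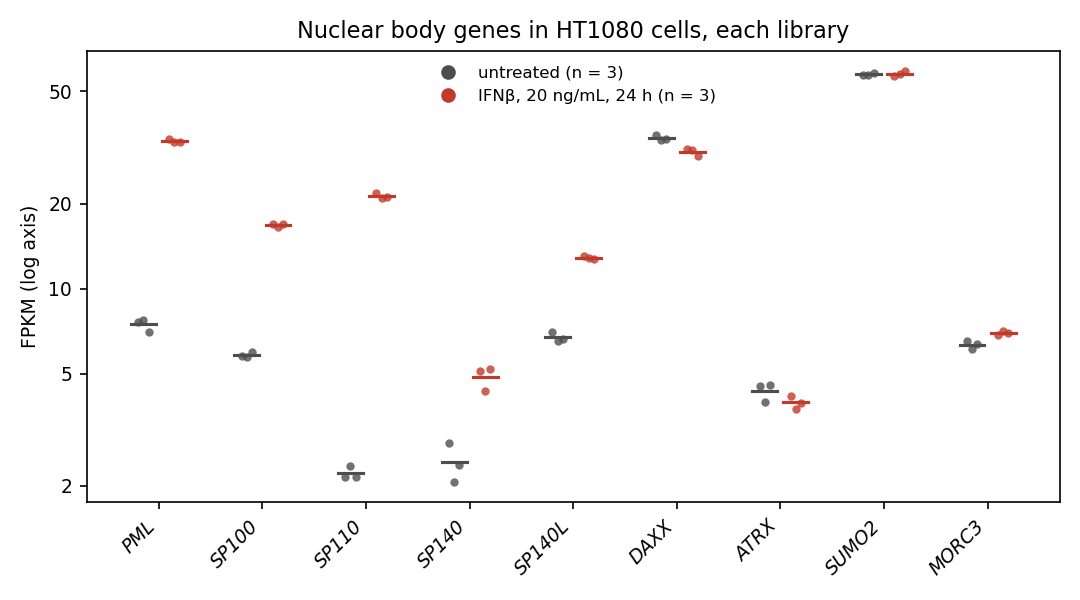
Level of each of the 9 genes in every library, in FPKM on a log axis. Grey points are the 3 untreated and red points the 3 IFNβ-treated libraries, and bars are group means. The treated points of PML, SP100, SP110, SP140 and SP140L lie well above the untreated ones, while those of ATRX and SUMO2 overlap.

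PML (ENSG00000140464, chr15:73994673-74047812, plus strand), the scaffold protein without which the bodies do not form, was at 7.62, 7.74 and 7.03 FPKM in untreated libraries. In treated libraries it was at 33.8, 33.0 and 33.1 FPKM. The lowest treated library was far above the highest untreated one. The increase of 25.8 FPKM was the largest of the 9 genes in absolute level, and the log2 fold change was 2.14 (SE 0.039, 95% CI 2.05 to 2.24, limma adjusted p = 3.0e-07). None of the 14127 windows of 150 bases in its annotated transcripts was shared with another gene.

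SP100, the partner that is found in nearly all PML bodies, was at 5.78, 5.74 and 5.96 FPKM in untreated and at 16.9, 16.5 and 16.9 FPKM in treated libraries. The groups were tight and well apart. The means were 5.83 ± 0.118 and 16.8 ± 0.232 FPKM (S.D., n = 3 each), a 2.88-fold increase (log2 fold change 1.51, SE 0.027, 95% CI 1.44 to 1.57, limma adjusted p = 2.6e-07).

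SP110 is a paralogue known for its part in resistance to intracellular bacteria and is mutated in a hereditary immunodeficiency with liver disease. In untreated cells it had the lowest mean FPKM of the 9 genes, a rank that depends on the gene lengths behind the FPKM. It was at 2.15, 2.36 and 2.15 FPKM, with values that overlapped those of SP140. Treated libraries held 21.9, 21.0 and 21.1 FPKM. This was the largest fold change among the 9 genes, with means of 2.22 ± 0.118 and 21.4 ± 0.495 FPKM (S.D., n = 3 each) and a ratio of 9.62. Its log2 fold change was 3.21 (SE 0.045, 95% CI 3.10 to 3.32, limma adjusted p = 7.7e-08). The recovered fragments behind these values were 526, 747 and 756 in untreated and 7213, 5606 and 6529 in treated libraries.

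SP140, a chromatin reader known mainly from lymphocytes and macrophages, was at 2.83, 2.07 and 2.37 FPKM in untreated and at 5.10, 4.34 and 5.19 FPKM in treated libraries. Every treated value exceeded every untreated one, but the spread within groups, relative to the mean, was the widest of the family. The means of 2.42 ± 0.382 and 4.87 ± 0.467 FPKM (S.D., n = 3 each) gave a ratio of 2.01 and a log2 fold change of 0.99 (SE 0.12, 95% CI 0.68 to 1.29, limma adjusted p = 0.0015). The value fell just short of the fold threshold for a DEG. It passed without untreated replicate 1 (1.10), without IFNβ replicate 2 (1.07), with a pseudocount of 0.01 (1.01) and with limma-voom on the recovered fragments (1.04).

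SP140L, the paralogue next to SP140, was at 7.00, 6.50 and 6.64 FPKM in untreated and at 13.1, 12.8 and 12.7 FPKM in treated libraries. The means of 6.71 ± 0.257 and 12.9 ± 0.220 FPKM (S.D., n = 3 each) did not overlap. The log2 fold change was 0.93 (SE 0.035, 95% CI 0.84 to 1.01, limma adjusted p = 9.0e-06), below the fold threshold under all 16 alternatives that gave it a value, from 0.85 to 0.96.

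**Figure D2:**
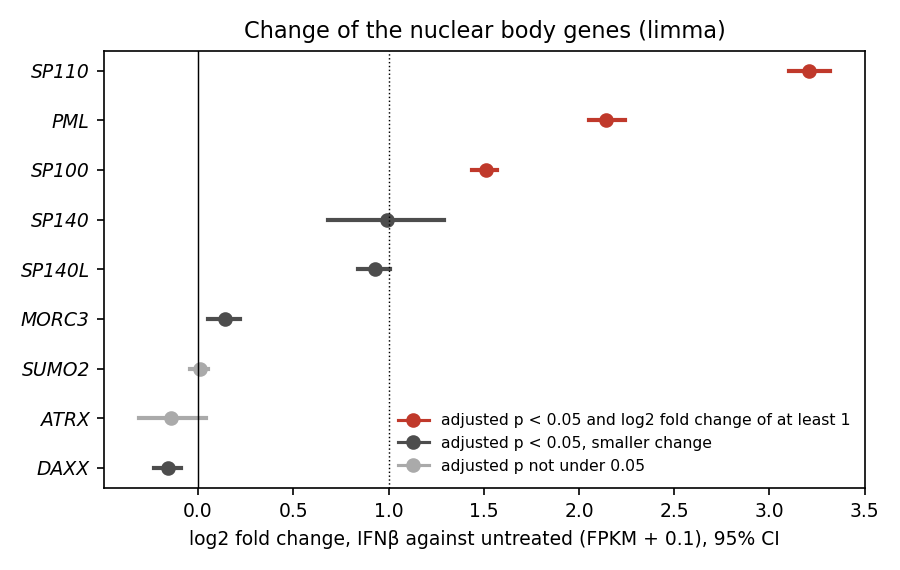
The log2 fold change of each of the 9 genes, IFNβ against untreated, with its 95% confidence interval from limma on log2(FPKM + 0.1). The dotted line is the fold threshold at 1, red marks DEGs, dark grey an adjusted p under 0.05 with a smaller change and light grey the remaining genes. SP110 is highest at 3.21, and the intervals of SP140 (0.68 to 1.29) and SP140L (0.84 to 1.01) cross the threshold.

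DAXX (ENSG00000204209, chr6:33318558-33323016, minus strand), the H3.3 chaperone that is stored in nuclear bodies, was at 35.1, 33.6 and 33.8 FPKM in untreated and at 31.2, 30.9 and 29.4 FPKM in treated libraries. All treated libraries lay below all untreated ones. The means of 34.1 ± 0.813 and 30.5 ± 0.950 FPKM (S.D. of 3 libraries) lay close together, with a log2 fold change of -0.16 (SE 0.030, 95% CI -0.23 to -0.09, limma adjusted p = 0.0079). ATRX (ENSG00000085224, chrX:77504878-77786233, minus strand), the chromatin remodelling ATPase that works with DAXX, was at 4.53, 3.95 and 4.57 FPKM in untreated and at 4.15, 3.76 and 3.94 FPKM in treated libraries. The groups overlapped, and the log2 fold change of -0.14 (95% CI -0.31 to 0.04) had a limma adjusted p of 0.2. With limma-voom on the recovered fragments the value of -0.13 had an adjusted p of 0.03.

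SUMO2 (ENSG00000188612, chr17:75165586-75182983, minus strand), which encodes a modifier attached to PML and its partners, was the highest of the 9 genes. It was at 57.2, 57.2 and 57.9 FPKM in untreated and at 56.8, 57.5 and 58.9 FPKM in treated libraries. The groups overlapped, with a log2 fold change of 0.01 (SE 0.019, limma adjusted p = 0.84), and its 95% CI of -0.04 to 0.05 bounds the change. MORC3 (ENSG00000159256, chr21:36320189-36386148, plus strand), an ATPase that SUMO brings to nuclear bodies, was at 6.52, 6.12 and 6.36 FPKM in untreated and at 6.87, 7.09 and 6.94 FPKM in treated libraries. Treated libraries were all above untreated ones, by a log2 fold change of 0.14 (SE 0.035, 95% CI 0.05 to 0.22, limma adjusted p = 0.026). This call was lost in 8 of 16 alternatives. The adjusted p was 0.068 without untreated replicate 2, 0.067 without untreated replicate 3, 0.055 without IFNβ replicate 1, 0.086 without IFNβ replicate 2 and 0.07 without IFNβ replicate 3 (limma). It was 0.054 after quantile normalization and 0.06 without the intensity trend.

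The order of the levels changed. In untreated cells SUMO2 was highest with a mean of 57.5 FPKM, followed by DAXX (34.1), PML (7.46), SP140L (6.71), MORC3 (6.33), SP100 (5.83), ATRX (4.35), SP140 (2.42) and SP110 (2.22). The libraries of SP140L and MORC3 overlapped, as did those of SP140 and SP110. In treated cells SUMO2 was again highest, and PML (33.3 FPKM) lay above DAXX (30.5). SP110 moved from rank 9 to rank 4, ahead of SP100, SP140L, MORC3, SP140 and, at the lowest level, ATRX. No neighbours overlapped in the treated group. Comparisons of level between genes, such as these ranks, the absolute increases and the family shares, depend on the gene lengths behind the FPKM. For SP110 the FPKM and recovered fragments correspond to a length of 10685 bases, against 6865 exon bases in GENCODE release 29.

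The SP100 family as a whole rose from a summed level of 17.8, 16.7 and 17.1 FPKM to 57.1, 54.6 and 55.9 FPKM, a ratio of 3.25. Its makeup shifted. SP140L held the largest share in untreated libraries, 39.0 ± 0.312% of the family's FPKM, and 23.0 ± 0.327% in treated libraries (S.D., n = 3 each). SP110 went from 12.9 ± 1.06% to 38.2 ± 0.359%, the largest share after treatment. SP140 went from 14.1 ± 1.77% to 8.72 ± 0.693%. The share of SP100 moved least, from 32.5, 34.5 and 34.8% to 29.7, 30.2 and 30.2%. The shares add up to a whole, so that a higher share of 1 gene lowers the others.

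**Figure D3:**
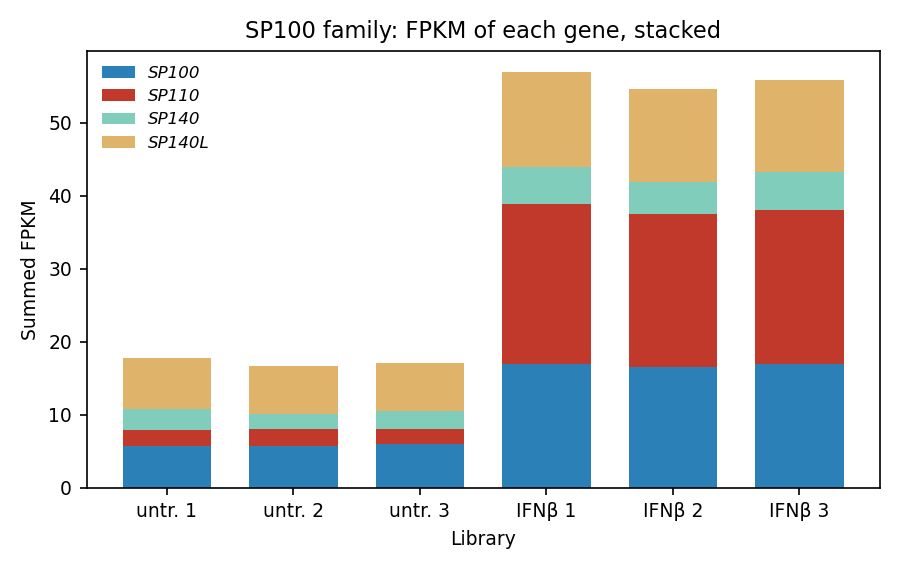
Summed FPKM of the 4 SP100 family genes in each library, stacked by gene. The total rises from 16.7 to 17.8 FPKM in the 3 untreated libraries to 54.6 to 57.1 FPKM in the 3 IFNβ-treated ones, and the SP110 layer (red) grows most.

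Unequal changes among partners were compared as 4 ratios within each library, which do not depend on how libraries were scaled. The PML to SP100 ratio was 1.32, 1.35 and 1.18 in untreated and 2.00, 2.00 and 1.96 in treated libraries. PML thus gained on its partner SP100 in every treated library, by 0.63 on the log2 scale. The SP110 to SP100 ratio went from 0.373, 0.410 and 0.360 to 1.29, 1.27 and 1.25, so that the order of these paralogues was inverted. The PML to DAXX ratio went from 0.217, 0.230 and 0.208 to 1.08, 1.07 and 1.12, a 5.00-fold change. In these 3 ratios the groups did not overlap, and the exact two-sided permutation test gave p = 0.10, the smallest that 3 against 3 libraries allow (0.13 after Benjamini-Hochberg adjustment over the 4 ratios given here). The DAXX to ATRX ratio, 7.73, 8.50 and 7.39 in untreated and 7.52, 8.22 and 7.48 in treated libraries, differed by -0.02 on the log2 scale (exact permutation p = 0.70, adjusted 0.70), by 0.03 without untreated replicate 2 and by 0.00 without IFNβ replicate 3.

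Genes of the family overlap other genes, and it is not given in the sources used here whether fragments were counted by strand. Overlaps are given here by GENCODE release 29. The length behind the FPKM of SP110, 10685 bases, differs from its 6865 exon bases there, so the overlaps in the annotation used are not known. SP110 and SP140 share 170 exon bases on opposite strands, 2.48% of the exon bases of SP110 and 3.05% of those of SP140. The antisense gene AC009950.1 covers 1262 exon bases of SP110, or 18.4%. It had 9, 8 and 6 fragments in untreated and 132, 75 and 113 in treated libraries, and it rose, as SP110 did (log2 fold change 2.37, SE 0.22, limma adjusted p = 4.3e-04). At this low level the value depended on the pseudocount, with 0.68, below the fold threshold, for a pseudocount of 1 and 3.76 with limma-voom on the recovered fragments. Without strand, reads inside these overlaps cannot be told apart. Of the 7374 windows of 150 bases of SP110, 10.9% were shared with another gene on either strand, 10.6% with AC009950.1 and 0.285% with SP140. SP140 and SP140L shared 277 windows of 150 bases on the same strand, 4.31% of the windows of SP140 and 4.39% of those of SP140L, where reads could be split between them. Of the 13315 windows of SP100, 2.97% were shared, all with the processed pseudogene HMGB1P3. Outside the family, DAXX shared 7.87% of its windows on the same strand with AL662820.1, which was at 0 FPKM in all libraries. SUMO2 shared 0.802% with SUMO2P1 and MORC3 0.774% with AP000692.1, also on the same strand.

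Within 300 kb of the family, 22 other genes were annotated, of which 9 were above the expression filter and 4 were DEGs, all higher. Among all genes tested 4.22% were DEGs and 3.49% were higher DEGs, and the neighbours were not tested against these shares. The 4 need not be separate from the family, as AC009950.1, RN7SL834P and HMGB1P3 overlap its genes. HMGB1P3, 616 bases long, shares 544 exon bases with SP100 on the same strand, where their fragments cannot be told apart. Besides AC009950.1 the DEGs near the family were RN7SL834P and HMGB1P3, which lie inside SP100, and AC009949.1 between SP140L and SP100. Each had few fragments, and with a pseudocount of 1 the log2 fold changes of AC009949.1 (0.26) and HMGB1P3 (0.37) were below the fold threshold. RN7SL834P had 9, 8 and 18 in untreated and 50, 35 and 22 in treated libraries, and without IFNβ replicate 2 its log2 fold change of 1.45 had a limma adjusted p of 0.054. AC009949.1 had 2, 3 and 0 against 11, 13 and 13 fragments, with a limma adjusted p of 0.055 without IFNβ replicate 2 and 0.054 without IFNβ replicate 3. HMGB1P3 had 2, 1 and 3 against 13, 7 and 4 fragments, and its call was lost in 10 of 15 alternatives, among them without any of untreated replicates 1 to 3 or IFNβ replicates 1 and 2 (limma adjusted p 0.075 to 0.12). The antisense gene AC010149.1, which shares 117 exon bases with SP100, had 10, 4 and 15 against 25, 20 and 14 fragments and did not pass (log2 fold change 0.99, 95% CI -0.00 to 1.98, limma adjusted p = 0.12). Its log2 fold change ran from 0.54 (without untreated replicate 2) to 1.22 with a library left out, and was 0.43 with a pseudocount of 1. The pseudogene BANF1P3 did not pass either, with a log2 fold change of -0.18 (95% CI -1.45 to 1.10, limma adjusted p = 0.84). The tested protein-coding flanks changed little. TRIP12, a ubiquitin ligase, and CAB39, a partner of the kinase LKB1, rose by 0.17 and 0.15 on the log2 scale, with limma adjusted p of 9.3e-04 and 0.0032. FBXO36, with a mean of 0.307 FPKM in untreated libraries, had a log2 fold change of 0.10 (95% CI -0.58 to 0.78) that did not pass.

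Around PML, 9 other genes lay within 100 kb, 3 were above the filter and 0 were DEGs, against 4.22% of all genes tested. Without the fold threshold all 3 passed, where 32.7% of all genes tested did so. STOML1, a stomatin-like gene at chr15:73978923-73994622 that runs away from PML on the opposite strand, had means of 1.55 ± 0.0972 and 2.29 ± 0.0939 FPKM (S.D. of 3 libraries) and rose by 0.54 on the log2 scale (SE 0.071, limma adjusted p = 0.0018). LOXL1, an enzyme of elastic fibre formation, rose by 0.32 (adjusted p = 0.0014), and its antisense gene LOXL1-AS1 fell by 0.45 (adjusted p = 0.0028, both limma).

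Other genes of the same pathways were counted list by list. The counts stand beside the shares over all genes tested, of which 15.2% rose, 17.5% fell and 4.22% were DEGs, and no list was tested against them. Of 18 genes of SUMO conjugation and removal, 4 rose, 4 fell, 10 did not pass, and 0 were DEGs, with rises and falls both not far from those shares. Their log2 fold changes ran from -0.26 (PIAS2, a SUMO ligase) to 0.18 (ZNF451, also a SUMO ligase) with a median of -0.03. ZNF451 was at 3.47, 3.31 and 3.34 FPKM in untreated and at 3.78, 3.81 and 3.91 FPKM in treated libraries, a rise with a limma adjusted p of 0.017. That call was lost without untreated replicate 2 (0.053), untreated replicate 3 (0.056), IFNβ replicate 2 (0.05) and IFNβ replicate 3 (0.062, all limma adjusted p). SENP5, a protease that removes SUMO, rose by 0.15 (limma adjusted p = 0.0083). SUMO3, the most abundant gene counted in the list, was at 51.4, 53.3 and 56.3 FPKM in untreated and at 51.8, 53.8 and 51.3 FPKM in treated libraries, which overlapped (limma adjusted p = 0.51). UBA2 and SAE1, which together form the SUMO-activating enzyme, fell by 0.19 and 0.16 (limma adjusted p = 0.0024 and 0.0062). The call on PIAS2 (limma adjusted p = 0.036) was lost without any single library but IFNβ replicate 1, with adjusted p of 0.087 to 0.099, and with no filter on low genes (0.054).

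Of 13 partners in H3.3 deposition and heterochromatin, 6 rose, 6 fell and 1 did not pass, against 32.7% of all genes tested that passed in either direction. There were 0 DEGs, and the median log2 fold change was 0.06. CBX5, the heterochromatin protein HP1α, was at 19.2, 19.7 and 19.6 FPKM in untreated and at 12.5, 12.1 and 12.4 FPKM in treated libraries. This was the largest fall in the related pathway lists, a log2 fold change of -0.66 (SE 0.024, limma adjusted p = 8.2e-06). CBX3 and CBX1, the other HP1 proteins, fell by 0.27 and 0.17 (limma adjusted p = 2.2e-04 and 0.015). The call on CBX1 was lost without untreated replicate 3 (0.053), without IFNβ replicate 2 (0.056) and without the intensity trend (0.059). ASF1A, which hands histone H3 to HIRA, rose from 17.0, 18.3 and 17.4 to 25.4, 24.1 and 25.1 FPKM, a log2 fold change of 0.50 (limma adjusted p = 1.3e-04). HIRA, the H3.3 chaperone that works apart from DAXX and ATRX, rose by 0.47 (limma adjusted p = 0.0044). Of the genes for H3.3 itself, H3-3B rose by 0.21 and H3-3A fell by 0.12 (limma adjusted p = 1.8e-04 and 0.015). The call on H3-3A was lost without IFNβ replicate 1 (0.055), without IFNβ replicate 2 (0.051) and without the intensity trend (0.077). TRIM28, the corepressor KAP1, was the most abundant gene of the list at 202 to 206 FPKM in untreated and 187 to 195 FPKM in treated libraries, a log2 fold change of -0.10 (limma adjusted p = 0.013, and 0.2 after quantile normalization, 0.1 without trend, 0.055 with equal totals and 0.051 without IFNβ replicate 2).

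Among 17 other residents of nuclear bodies, 5 rose, 3 fell and 9 did not pass, with 1 DEG and a median of 0.03. The falls and the DEG were near the shares over all genes. The DEG was ISG20, an interferon-induced exonuclease, at 1.57, 1.87 and 1.51 FPKM in untreated and 11.9, 12.2 and 11.5 FPKM in treated libraries (log2 fold change 2.78, SE 0.081, limma adjusted p = 2.5e-06). TP53INP1, a stress-induced partner of p53, rose by 0.59 and NBN, of the MRN repair complex, by 0.25 (limma adjusted p = 0.0036 and 0.0013). HIPK2, a kinase of p53, fell by 0.39 and USP7, a deubiquitinase, by 0.36 (limma adjusted p = 3.4e-05 and 7.6e-05). The treated libraries of HIPK2 were all at 13.2 FPKM, against 17.2, 17.2 and 17.5 FPKM in untreated ones.

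Of 7 relatives that share a SAND domain or a PHD finger and bromodomain with the SP100 family, AIRE was at 0 in all libraries and 6 were tested. Of these 3 rose, 2 fell and 1 did not pass, with 0 DEGs and log2 fold changes from -0.17 (TRIM24) to 0.44 (TRIM66). The call on TRIM24 (limma adjusted p = 0.018) was lost without untreated replicate 1 (0.054), untreated replicate 2 (0.05) and IFNβ replicate 1 (0.052). That on TRIM33 (0.15, limma adjusted p = 0.025) was lost without untreated replicates 1 (0.072) or 2 (0.076) and without IFNβ replicates 1 (0.072) or 2 (0.06), and without the intensity trend (0.067). The other 3 MORC genes held 0 DEGs. MORC2, a chromatin-compacting ATPase, rose by 0.21 (limma adjusted p = 0.0011), and MORC1 and MORC4 did not pass.

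All 3 transcription factors that interferon activates and that were counted here were DEGs. STAT2 rose from 3.77, 3.94 and 3.92 to 41.2, 39.7 and 40.8 FPKM. Its log2 fold change was 3.35, beside 3.21 for SP110. IRF9 (2.79) and IRF1 (1.21) rose from lower levels. The value of IRF9, at 17, 29 and 30 fragments in untreated libraries, depended on the pseudocount. It was 1.15 with a pseudocount of 1, 3.40 with 0.01 and 3.45 with limma-voom on the recovered fragments, where it lay above STAT2 (3.38). The value of IRF1 was 0.92, below the fold threshold, with a pseudocount of 1.

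**Figure D4:**
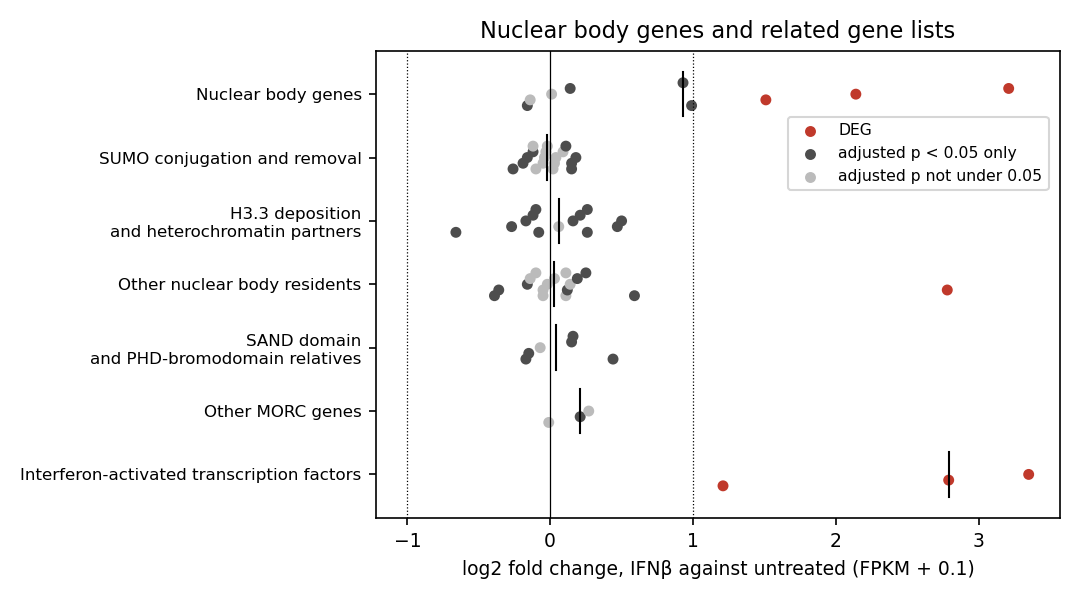
The log2 fold change (IFNβ against untreated, FPKM + 0.1) of every tested gene of the 9 nuclear body genes and of 6 related lists, with 1 point per gene and a short vertical bar at each list's median. Red points are DEGs, dark grey points pass an adjusted p of 0.05 only, and dotted lines mark the fold threshold. Outside the 9 genes, DEGs appear among the nuclear body residents (ISG20, 2.78) and the interferon-activated transcription factors (1.21 to 3.35).

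The genes whose profile over the 6 libraries was most like that of PML and SP100 were found among 11996 genes with a mean of at least 1 FPKM, as the smallest Euclidean distance between mean-centred log2 values. For PML they were IFITM2 (distance 0.118), GBP3 (0.120), EIF2AK2 (0.131), WARS1 (0.132) and PSMB8 (0.148), with log2 fold changes from 2.05 to 2.20. IFITM2 is a membrane protein that restricts virus entry, EIF2AK2 is the kinase PKR, and PSMB8 is a subunit of the immunoproteasome. For SP100 they were ZNFX1 (0.0631), the noncoding RNA CHROMR (0.0742), ADAR (0.0751), XRN1 (0.0870) and ZCCHC2 (0.0879), with log2 fold changes from 1.46 to 1.49. ADAR is an RNA-editing enzyme and XRN1 a 5′ exonuclease. All 10 were DEGs, which follows from their choice by likeness to PML and SP100, both DEGs. The distances rest on 1 contrast of 3 against 3 libraries and describe a like size of change only.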

How the data were processed

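Total RNA of HT1080 cells was enriched for mRNA by the authors and sequenced as paired reads of 2 × 150 bases on a NovaSeq instrument. The submitters' processing notes list fastp, HISAT2, StringTie and GRCh38, without roles or versions. The annotation, gene lengths and use of strand are not given in the sources used here. The labels name human IFNβ for these cells, whereas the RNA sequencing methods of the paper name mouse IFNβ. The deposited values are FPKM per Ensembl gene and library, with no pooling. The authors used DESeq2 for their own comparison, whose values were not used here.

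Of the 62710 identifiers, 42303 had a symbol and 4436 were not in GENCODE release 29, which gave the locations. Depth was recovered from the FPKM values. Values of all 35303 genes above 0 (100.0%) came out as whole-number proportions of fragments within a relative tolerance of 1.0e-09, which added up to 99.25 to 99.29% of each library's divisor. Libraries of 1 group differed by more than counting error (chi-square per degree of freedom 1.78 to 3.38), so none was listed more than once.

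Groups were compared with limma 3.58.1 (R 4.3.3; lmFit, eBayes with trend) after a log2(FPKM + 0.1) transform, keeping genes whose mean reached 0.1 FPKM, with Benjamini-Hochberg adjustment over 20716 genes. The log2 fold change understates changes of low genes. "Rose" and "fell" mean an adjusted p under 0.05. Ratios were tested by exact two-sided permutation (scipy 1.17.1). The procedure was tested on simulated data. Named genes were the 9 genes, their neighbours above the filter, the 5 most alike of PML and SP100, and the lowest, highest and most abundant of each list. Further genes of the lists (SENP5, UBA2, SAE1, CBX1, CBX3, HIRA, H3-3A, H3-3B, TP53INP1, NBN) and the genes that hold the promoter run were named after their values were seen. The members and lists were chosen with earlier results of these data known, and 2 list genes and 1 ratio that had been planned are not reported here, for a reason unrelated to their values, so counts over those lists and ratios are not complete. Alternatives were other pseudocounts, filters, scalings and thresholds, no trend, a replicate block, fits that omit a library, and limma-voom on the recovered fragments, an alternative chosen after seeing the data.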

Additional observations from a re-analysis of the deposited data

How the results depend on the processing

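PML, SP100 and SP110 were DEGs under all 16 alternatives that refit each gene, with log2 fold changes of 2.02 to 2.17, 1.38 to 1.52 and 2.80 to 3.27. SP140 (0.78 to 1.10), SP140L (0.85 to 0.96) and DAXX (-0.18 to -0.14) passed the adjusted p threshold in all 16. MORC3 did so in 8. The number of the 9 genes called DEG was 3 or 4, except that it was 7 with no fold threshold, and 3 to 4 with a library left out. The number with an adjusted p under 0.05 was 6 to 8, and 6 to 7 with a library left out.

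Over all genes, the 875 DEGs (722 higher, 153 lower) became 304 (278 and 26) with a pseudocount of 1, 425 (365 and 60) with a filter at a mean of 1 FPKM, and 6778 (3153 and 3625) with no fold threshold. An adjusted p under 0.01 left 70 lower ones. Limma-voom on the recovered fragments called 1100. Quantile normalization called 603 higher and 218 lower. With a library left out, the counts were 809 to 867 (643 to 724 higher and 138 to 166 lower). The ratios were 0.58 to 0.67 (PML to SP100), 1.70 to 1.80 (SP110 to SP100), 2.29 to 2.36 (PML to DAXX) and -0.07 to 0.03 (DAXX to ATRX) with a library left out. Values near 0 changed sign. SUMO2 was at -0.00 after quantile normalization and -0.01 without IFNβ replicate 3. MORC4 was at 0.03 without untreated replicate 2 and 0.02 without IFNβ replicate 3. FBXO36 was at -0.05 after quantile normalization, -0.01 without untreated replicate 1 and -0.14 without IFNβ replicate 3, within a range of -0.14 to 0.29 with a library left out. BANF1P3, a pseudogene beside the family at -0.18, was at 0.06 and 0.08 without untreated replicates 1 and 2 and at 0.12 without IFNβ replicate 2, within a range of -0.67 to 0.12. The causes of these shifts were not tested, other than that stricter filters test fewer genes and a larger pseudocount shrinks the changes of low genes.

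Replicate numbers did not pair the libraries. Deviations from the group means correlated by 0.05, -0.02 and 0.12 between libraries with the same number over 11996 genes, and not every library correlated best with its own number. With the replicate number as a block, 829 genes (684 higher, 145 lower) were DEGs, as were 3 of the 9 genes, and 6 of the 9 passed the adjusted p threshold. Among the 9 genes the block ended the call on MORC3 (limma adjusted p = 0.074) and no other. Among the other genes named with a test it ended those on ZNF451 (0.055), PIAS2 (0.084), TRIM33 (0.064) and HMGB1P3 (0.071).

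The 9 genes had at least 343 fragments in each library. The neighbours AC009949.1 and HMGB1P3 rest on at most 3 fragments in each untreated library. Within-gene isoforms were not measured.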
